A study of Mus musculus with 6 samples.

Results

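The stathmin family genes Stmn1, Stmn2, Stmn3 and Stmn4 were followed in RNA-seq of dorsal root ganglia, the clusters of sensory neurons and glia beside the spinal cord, from mouse embryos at stage E13.5. The members were taken by gene symbol, which found all 4 among the 17971 genes of the table, and all 4 had enough counts to be among the 14338 genes tested. The 3 cKO libraries came from Wnt1-cre+/-;Ybx1fl/fl embryos and the 3 Ctrl libraries from Ybx1fl/fl littermates without Cre, so both groups carry the floxed Ybx1 alleles. All embryos are described as male, and the labels do not say how many embryos gave each library. The study asked which mRNAs depend on Ybx1, an mRNA-binding protein with a cold-shock domain. Wnt1-driven Cre acts in the neural crest lineage, which forms the sensory neurons and glia of the ganglia, while blood and endothelial cells lie outside it. Because every cKO embryo carried Cre and no Ctrl embryo did, effects of Cre and of losing Ybx1 cannot be told apart.

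Stathmins bind tubulin dimers, keep them from joining microtubules and favour microtubule shortening, and phosphorylation weakens this binding. Stmn1 is cytosolic and is made both in dividing cells, where it takes part in building the spindle, and in neurons. Stmn2, also called SCG10, Stmn3, also called SCLIP, and Stmn4, also called RB3, are neuronal proteins that carry an extra amino-terminal stretch whose palmitoylated cysteines attach them to membranes of the Golgi and of transport vesicles. Stmn2 is carried into growing axons, marks regenerating sensory axons after injury, and in humans its mRNA is spliced wrongly when the RNA-binding protein TDP-43 is lost.

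The coding starts of the 4 mRNAs show this division of the family. The first 90 coding bases, or 30 codons, of each are printed with cysteine codons in capitals, as read from GENCODE M21 transcripts (GRCm38) that match a RefSeq mRNA.
Stmn1: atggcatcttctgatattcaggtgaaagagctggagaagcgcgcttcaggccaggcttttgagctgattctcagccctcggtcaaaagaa
Stmn2: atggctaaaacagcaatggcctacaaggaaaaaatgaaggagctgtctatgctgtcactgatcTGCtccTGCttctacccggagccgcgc
Stmn3: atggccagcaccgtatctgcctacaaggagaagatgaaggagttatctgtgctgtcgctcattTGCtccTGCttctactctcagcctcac
Stmn4: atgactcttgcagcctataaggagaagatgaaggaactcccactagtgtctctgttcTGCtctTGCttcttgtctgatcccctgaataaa

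Stmn1 had 0 cysteine codons in this window, and the other 3 genes had 2 each. They stood at codons 22 and 24 in Stmn2 and in Stmn3, and at codons 20 and 22 in Stmn4. The coding sequences ran over 149 codons in Stmn1, 179 in Stmn2, 180 in Stmn3 and 189 in the Stmn4 transcript used. Across aligned coding bases the highest identity was 74.3%, between Stmn2 and Stmn3, and the lowest 69.1%, between Stmn1 and Stmn3. The genes lie apart in the genome: Stmn1 on chromosome 4 (134468320 to 134473843), Stmn2 on chromosome 3 (8509527 to 8561604), Stmn3 on chromosome 2 (181306459 to 181314500) and Stmn4 on chromosome 14 (66344210 to 66361680), in GRCm38. Stmn3 lies on the minus strand and the other 3 on the plus strand. The transcripts used held 5 exons, except that of Stmn4, which held 6. GENCODE lists further complete coding transcripts of Stmn4, with 176, 203 and 216 codons, and the counts per gene do not separate them.

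Before the members are compared, the libraries need description. Each held 16464264 to 17446385 estimated counts. Ybx1 stood at 137, 122 and 108 CPM (counts scaled to a common library size with TMM factors) in cKO, against 927, 809 and 817 CPM in Ctrl, so each library went with its label. Libraries with replicate number 1 stood apart: the deposited FPKM values summed to 614728 in cKO replicate 1 and 590156 in Ctrl replicate 1, against 548068 to 551964 in the other 4. Summed CPM of 6 erythroid genes was 5963 in cKO replicate 1 and between 1547 and 2602 in every other library. Same-numbered libraries share the start of their sample code, and are called a litter here. That name is inferred from the codes and replicate numbers, and whether each pair came from the same litter was not tested. Results for the stathmins are therefore given also with the replicate number as a block and without litter 1.

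The stathmins were abundant transcripts in these ganglia. By TPM, a level per transcript length, all 6 libraries had the same order, Stmn1 above Stmn2 above Stmn3 above Stmn4, and the lowest value of each gene lay above the highest of the next. Ranked by mean TPM among the 17971 genes, Stmn1 was number 16, Stmn2 number 55, Stmn3 number 117 and Stmn4 number 408. The 4 together made up 0.752%, 0.804% and 0.797% of TPM in cKO, against 0.810%, 0.823% and 0.800% in Ctrl. These shares overlapped between the groups. Estimated counts told Stmn1 and Stmn2 apart less than TPM did, since the Stmn2 transcript is longer, at 2073 bases against 1060 for Stmn1. In Ctrl the counts of Stmn2 lay above those of Stmn1 (36925, 33551 and 32587 against 34465, 31417 and 29886). In cKO they lay below (33224, 30466 and 28667 against 33457, 32023 and 32388).

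**Figure D1:**
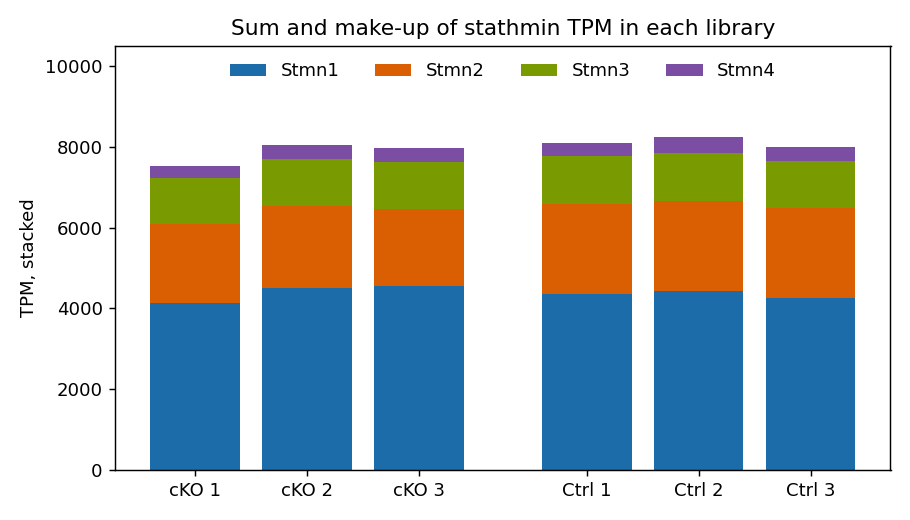
Stacked bars give the TPM of Stmn1, Stmn2, Stmn3 and Stmn4 in each cKO and Ctrl library. Stmn1 forms 53.3% to 57.1% of each bar, and the bar of cKO replicate 1 is the lowest at 7521 TPM.

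Stmn2 was the member with the largest difference between cKO and Ctrl, and it was lower in cKO. None of the 4 members passed the test without the block, where the log2 fold change of Stmn2 was -0.19. With the replicate number as a block, Stmn2 fell by 12.7% and was the single member called. Stmn4 was lower by a smaller amount and passed neither test, and Stmn1 and Stmn3 differed by less than the spread between libraries. A stathmin change in bulk tissue may stand for fewer cells of a type or for less RNA per cell, which cannot be told apart here.

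Stmn2, the axonal stathmin, held 33224, 30466 and 28667 estimated counts in cKO, against 36925, 33551 and 32587 in Ctrl. In normalised CPM this was 1916, 1779 and 1672 in cKO and 2146, 1998 and 1997 in Ctrl. Every cKO library lay below every Ctrl library, and in both groups replicate 1 was the highest. The TPM values of Stmn2, at 1952, 2032 and 1913 in cKO against 2224, 2247 and 2220 in Ctrl, did not overlap either. Stmn2 averaged 1789 ± 123 CPM in cKO and 2047 ± 85.9 CPM in Ctrl (SD, n = 3 each). Within litters, the log2 CPM of cKO minus that of the same-numbered Ctrl library was -0.16, -0.17 and -0.26 for Stmn2.

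Without the block, the fold change of Stmn2 had an SE of 0.080, a 95% interval from -0.37 to -0.02 and an edgeR adjusted p of 0.410. With the block its log2 fold change was -0.20 (SE 0.039, 95% interval -0.28 to -0.11, edgeR adjusted p 0.00858), or -17.6% to -7.46% in percent. Without litter 1, Stmn2 passed in both fits, with log2 fold changes of -0.21 and edgeR adjusted p of 0.00928 without the block and 0.000353 with it. With the block it also passed without litter 3 (log2 fold change -0.17, edgeR adjusted p 0.0386) but not without litter 2 (-0.21, edgeR adjusted p 0.0901).

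Stmn4, a neuronal stathmin whose transcript was the least abundant of the family, had 194, 196 and 194 CPM in cKO, against 203, 218 and 215 CPM in Ctrl. The groups did not overlap, and the cKO libraries lay within 3 CPM of each other. Its log2 fold change was -0.12 (SE 0.065, 95% interval -0.27 to 0.018, edgeR adjusted p 0.555), and -0.12 with the block (SE 0.047, 95% interval -0.22 to -0.023, edgeR adjusted p 0.159). Without litter 1 Stmn4 had -0.15 in both fits and an edgeR adjusted p of 0.115 without the block and 0.0602 with it. On TPM the groups overlapped, at 303, 344 and 341 in cKO against 325, 376 and 366 in Ctrl, where both libraries numbered 1 were the lowest of their group.

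Stmn1, the member shared by dividing cells and neurons, had 1930, 1870 and 1889 CPM in cKO, against 2003, 1871 and 1831 CPM in Ctrl. Ctrl replicate 1 was the highest library, Ctrl replicate 3 the lowest, and the cKO libraries lay between them. The log2 fold change of Stmn1 was -0.0043 (SE 0.074, edgeR adjusted p 0.991), and its sign turned to 0.022 when library totals were used in place of TMM or when litter 1 was left out. With the block the 95% interval ran from -5.84% to 5.71%.

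Stmn3, the neuronal stathmin closest to Stmn2 in coding sequence, had 587, 537 and 532 CPM in cKO, against 606, 552 and 544 CPM in Ctrl. The groups overlapped, while each cKO library lay below the same-numbered Ctrl library, by 0.047, 0.039 and 0.031 on the log2 CPM scale. The log2 fold change of Stmn3 was -0.039 (SE 0.078, edgeR adjusted p 0.915; 0.679 with the block), and it was 0.011 without Ctrl replicate 1. With the block the 95% interval reached from -8.60% to 3.65%, and without litter 1 its log2 fold change was -0.035 in both fits.

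**Figure D2:**
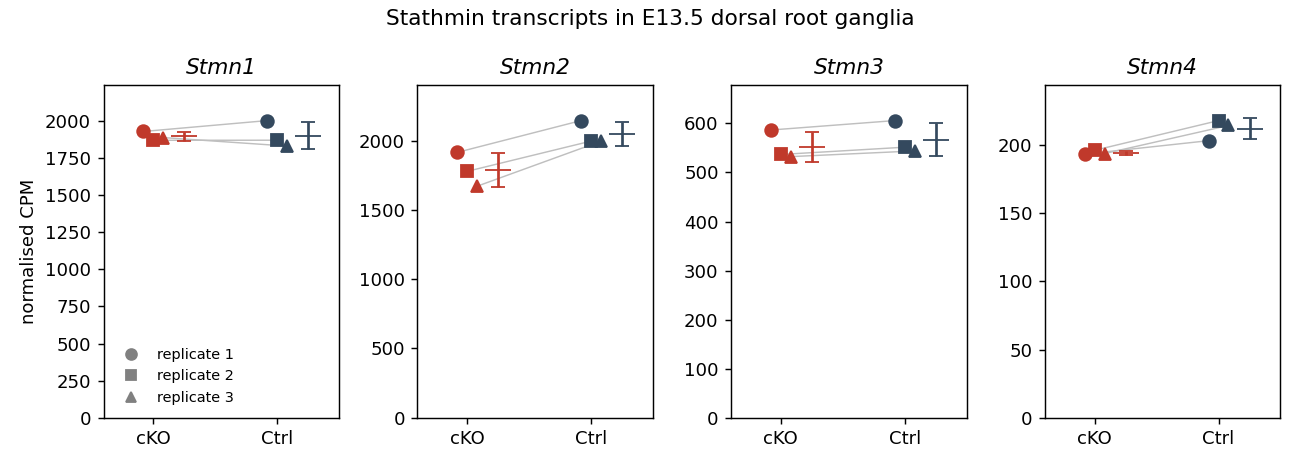
Each panel plots normalised CPM of one stathmin gene from 0, with cKO left of Ctrl, a point per library, grey lines joining same-numbered libraries, and the mean with its SD beside the points. For Stmn2 the 3 cKO points lie between 1672 and 1916 and the 3 Ctrl points between 1997 and 2146; for Stmn1 the points of the groups overlap.

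The calls of the family are given beside those of all genes. Over the 14338 genes, 0.481% were called without the block (0.112% higher and 0.37% lower in cKO), against 0 of 4 stathmins; at an unadjusted edgeR p under 0.05 there was 1, Stmn2, and DESeq2 and limma-voom called 0. With the block, 5.33% of all genes were called (1.76% higher and 3.56% lower), against 1 of 4 stathmins, which was lower; at an unadjusted p under 0.05 in that fit there were 2, Stmn2 and Stmn4. The median log2 fold change was -0.082 over the 4 members and 0.0044 over all genes tested. Groups did not overlap in CPM for 2 of 4 members, Stmn2 and Stmn4, and for 16.6% of all genes. The members were chosen with earlier results of these data known, so these comparisons with all genes are only descriptive.

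**Figure D3:**
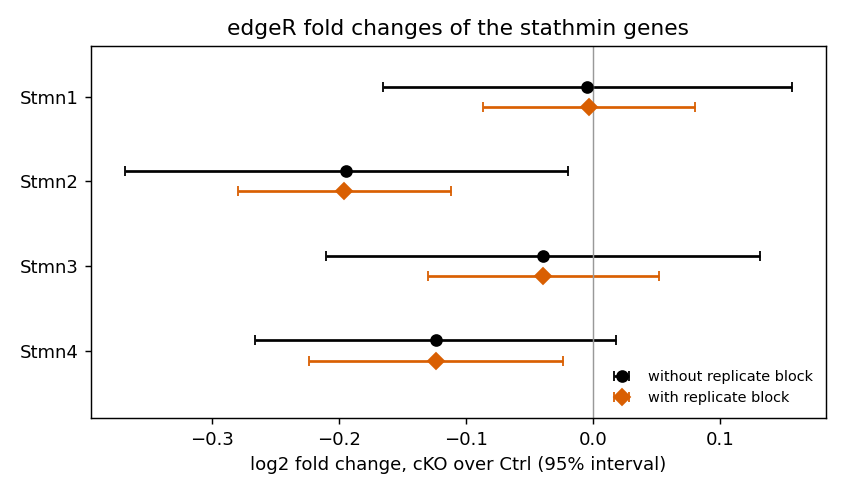
Points give the log2 fold change of cKO over Ctrl for each stathmin gene, and bars its 95% interval, without the replicate block (black circles) and with it (orange diamonds). The Stmn2 intervals lie below 0 in both fits, that of Stmn4 lies below 0 only with the block, and those of Stmn1 and Stmn3 span 0 in both.

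The balance between members was compared through ratios of their TPM within each library. Stmn2 stood at 0.448 of Stmn1 on average in cKO and at 0.513 in Ctrl (geometric means, n = 3 each). The log2 ratio of Stmn2 to Stmn1 was -1.08, -1.14 and -1.25 in cKO, against -0.97, -0.98 and -0.94 in Ctrl, so it was lower in every cKO library. The difference of the group means was -0.20 (exact two-sided permutation p 0.1, the smallest that 3 against 3 libraries allow; 0.3 after adjustment over the 6 pairs of members). The ratio of Stmn3 to Stmn2 was higher in every cKO library, at log2 values of -0.77, -0.79 and -0.71 in cKO against -0.89, -0.92 and -0.95 in Ctrl, with a difference of 0.16 and the same exact permutation p of 0.1. The other 4 ratios overlapped between the groups, with differences from -0.12 to 0.070 and exact permutation p from 0.3 to 0.5. Within litters, the 3 of them that involve Stmn4 had the same sign in 3 of 3 pairs, and Stmn3/Stmn1 in 2 of 3. Of all stathmin TPM, Stmn2 took 25.1% ± 1.0 in cKO and 27.5% ± 0.23 in Ctrl, and Stmn1 took 55.9% ± 1.13 in cKO and 53.6% ± 0.27 in Ctrl (SD, n = 3 each). These shares are parts of the same sum, so a lower share of Stmn2 raises the others. The ratios with an exact permutation p of 0.1 both contain Stmn2 and are not separate results.

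**Figure D4:**
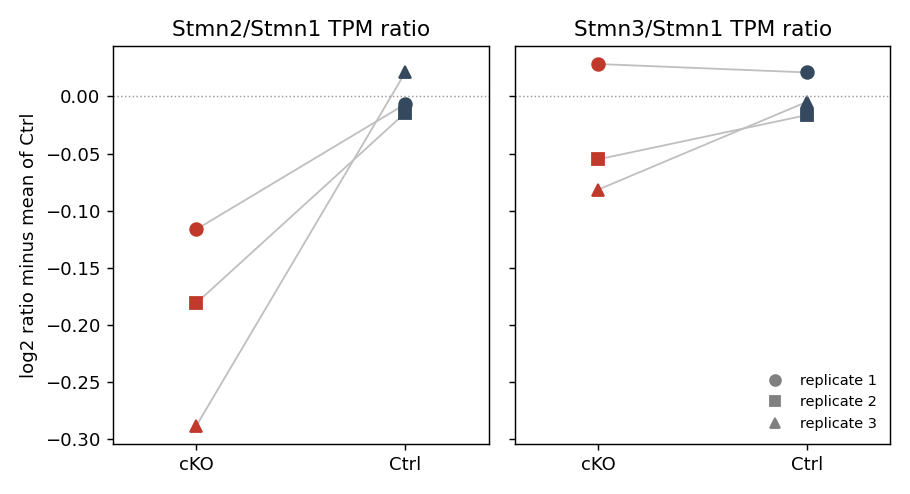
Points show the log2 TPM ratio of Stmn2 to Stmn1 (left) and of Stmn3 to Stmn1 (right) per library, less the mean of Ctrl, with cKO left of Ctrl and lines joining same-numbered libraries. Each cKO library lies below all Ctrl libraries for Stmn2/Stmn1, while for Stmn3/Stmn1 cKO replicate 1 lies above them.

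Markers of the cells in the ganglia were read beside the stathmins, because 3 of the 4 are neuronal genes. The summed CPM of 12 neuron genes was 10620 to 11920 in cKO and 11190 to 11560 in Ctrl, with cKO replicate 1 the lowest. As single genes, 0 of these 12 were called without the block (3 at an unadjusted edgeR p under 0.05, and 0 by DESeq2 and limma-voom) and 4 with it, all lower, in a fit where 3.56% of all genes were lower; their log2 fold changes ran from -0.23 to 0.077, with a median of -0.074. Divided by the summed neuron genes of the same library, Stmn2 was 18.04%, 15.08% and 14.02% in cKO, against 19.17%, 17.29% and 17.51% in Ctrl, where the groups overlapped. Within litters this Stmn2 ratio was lower in cKO in 3 of 3 pairs, by log2 differences of -0.088, -0.20 and -0.32 relative to the sum, and of -0.029, -0.11 and -0.23 relative to the mean log2 CPM. Relative to the mean log2 CPM of the 12 neuron genes, the Stmn2 difference was -0.12, and relative to their sum it was -0.20 (exact permutation p 0.4 and 0.3). The 8 glial genes summed to 1360 to 1463 CPM in cKO and 1246 to 1358 CPM in Ctrl, and 4 of them were called higher with the block, where 1.76% of all genes were higher, and 0 without it. The 7 macrophage genes summed to 80.9 to 119 CPM in cKO and 66.7 to 73.8 CPM in Ctrl. Their log2 fold changes ran from 0.29 to 0.50. Of these genes 1 was called higher with the block, where 1.76% of all genes were higher, and 0 without it. Neither the glial nor the macrophage sums overlapped between the groups. The lowest glial sum in cKO, 1360 CPM, lay barely above the highest in Ctrl, 1358 CPM. Among all genes taken singly, 16.6% did not overlap. The 10 genes of dividing cells, which also use Stmn1, overlapped, at 612 to 666 CPM in cKO and 593 to 643 CPM in Ctrl. The 5 endothelial genes also overlapped (322 to 351 CPM in cKO and 335 to 347 CPM in Ctrl). The 5 skeletal muscle genes summed to 4.79 to 8.77 CPM in cKO and 4.82 to 7.17 CPM in Ctrl. The 5 spinal cord genes summed to only 1.98 to 2.75 CPM in cKO and 1.49 to 2.02 CPM in Ctrl. Of the 2 that could be tested, 1 was called higher in both fits (log2 fold change 2.12), at this low level. Of all genes, 0.112% were higher without the block and 1.76% with it. The part of these cell types in the Stmn2 difference was not tested beyond these ratios.

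Genes related to stathmins were taken from 7 lists, of which not all hold genes acting on microtubules. They cover tubulins, tubulin folding cofactors, microtubule severing and depolymerising enzymes, and microtubule stabilisers. The rest cover stathmin kinases, axon survival and injury genes, and regulators of Stmn2 RNA. Of 71 listed genes that could be tested, 2 fell and 0 rose without the block, where 0.37% of all genes fell and 0.112% rose. With the block 10 fell and 2 rose, or 16.9% called against 5.33% of all genes. This count moved with litter 2 and with the scaling: without litter 2 it was 3 lower and 0 higher, and with library totals 6 lower and 5 higher. Their median log2 fold change was 0.0087. The lists were chosen with earlier results of these data known, so the shares of called genes, here and list by list, are only descriptive.

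The 2 genes of these lists called in the fit without the block were microtubule stabilisers, which act on microtubules opposite to stathmins. Tppp, which binds and bundles microtubules, had 10.6, 11.1 and 9.56 CPM in cKO, against 16.3, 18.0 and 16.7 CPM in Ctrl, and fell by 0.70 on the log2 scale (edgeR adjusted p 0.00945). Mapt, the gene of tau, which stabilises axonal microtubules, had 625, 753 and 768 CPM in cKO, against 965, 1049 and 1002 CPM in Ctrl (log2 fold change -0.49, edgeR adjusted p 0.0449). For both genes the groups were well apart. Mapt did not pass with library totals or after dropping either cKO or Ctrl library numbered 2 or 3 (largest edgeR adjusted p 0.200), nor without litter 2 (0.573) or litter 3 (0.260). Tppp did not pass after dropping the Ctrl library numbered 2 or the one numbered 3 (largest edgeR adjusted p 0.0668), nor without litter 2 (0.165) or litter 3 (0.202). Neither passed with limma on TPM. With the block both passed whichever litter was left out. With the block Map2, a dendritic stabiliser (log2 fold change -0.36, edgeR adjusted p 0.000267), and Map9, a microtubule-associated protein of the spindle (-0.30, 0.00496), also fell, which made 4 of 15 stabilisers lower and 0 higher, against 3.56% and 1.76% of all genes. The blocked call of Map9 was lost without litter 2 (edgeR adjusted p 0.0711). Without the block, DESeq2 also called Map2 (DESeq2 adjusted p 0.00472) and Map9 (0.0349), in a test that called 184 of all genes. Of the 15 stabilisers, DESeq2 called 4 and limma-voom 2. At an unadjusted edgeR p under 0.05 there were 5 without the block and 7 with it.

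Tubulins are what stathmins bind. Of 12 tested alpha and beta tubulin genes, 0 were called without the block (1 at an unadjusted edgeR p under 0.05, and 0 by DESeq2 and limma-voom) and 3 fell with it, against 3.56% of all genes. Tuba1a, the main alpha tubulin gene of young neurons, had 11549, 11148 and 10314 CPM in cKO, against 13069, 11875 and 11530 CPM in Ctrl, and a blocked log2 fold change of -0.14 (edgeR adjusted p 0.0184). Tubb4a had -0.20 (edgeR adjusted p 0.0201) and Tubb5 -0.14 (edgeR adjusted p 0.0370) in the same fit. Without litter 2 none of these 3 calls held, and without litter 1 those of Tuba1a and Tubb5 did not; the call of Tubb5 was also lost without litter 3 and with library totals. Tubulin genes are close copies of each other, so how the counting split shared reads among them is uncertain. Of 7 tubulin folding cofactors, 0 were called without the block (1 at an unadjusted edgeR p under 0.05, and 0 by DESeq2 and limma-voom). With the block 1 rose, where 1.76% of all genes were higher. It was Arl2, a small GTPase that works with them (log2 fold change 0.29, edgeR adjusted p 0.0123). The call of Arl2 was lost without litter 2 (edgeR adjusted p 0.182).

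Among 17 tested kinases that phosphorylate stathmin, Uhmk1, the kinase KIS, which phosphorylates stathmin, passed as lower with the block (log2 fold change -0.20, edgeR adjusted p 0.0346), and none without it (3 at an unadjusted edgeR p under 0.05, and 0 by DESeq2 and limma-voom). That 1 of 17 is 5.88%, close to the 5.33% of all genes called in that fit. The call of Uhmk1 was lost with library totals and without litter 1 or litter 2. Of 9 microtubule severing and depolymerising enzymes, none was called in either edgeR fit, in DESeq2 or in limma-voom, with 2 at an unadjusted edgeR p under 0.05 in each edgeR fit. The most abundant were Spast, which severs microtubules (log2 fold change -0.066), and Kif2a, a depolymerising kinesin (0.011).

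Axon survival and injury genes were listed because Stmn2 is lost and made again in injured axons. Of 8 tested, none was called without the block (3 at an unadjusted edgeR p under 0.05, and 0 by DESeq2 and limma-voom), and with it 1 rose and 2 fell, where 1.76% of all genes rose and 3.56% fell. Gap43, a growth cone protein gene, had 1083, 1031 and 968 CPM in cKO, against 886, 885 and 900 CPM in Ctrl, the opposite direction to Stmn2 (blocked log2 fold change 0.21, edgeR adjusted p 0.0145). Its groups did not overlap, and the call of Gap43 was lost without litter 2 (edgeR adjusted p 0.194). Sarm1, an NAD-cleaving enzyme that drives axon breakdown, fell by 0.20 on the log2 scale in the blocked fit (edgeR adjusted p 0.0492), and Jun, a transcription factor of the injury response, fell by 0.20 (0.0448). The calls of Sarm1 and Jun were lost with library totals, with DESeq2 size factors, and without litter 1 or litter 2. None of the 3 listed regulators of Stmn2 RNA was called, with or without the block, by DESeq2 or by limma-voom (0 at an unadjusted edgeR p under 0.05 without the block and 1 with it). The log2 fold change of Tardbp, the gene of TDP-43, was -0.12 (SE 0.077), and that of Rcor1, a corepressor that works with the neuronal gene repressor REST, was 0.026 (SE 0.070).

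**Figure D5:**
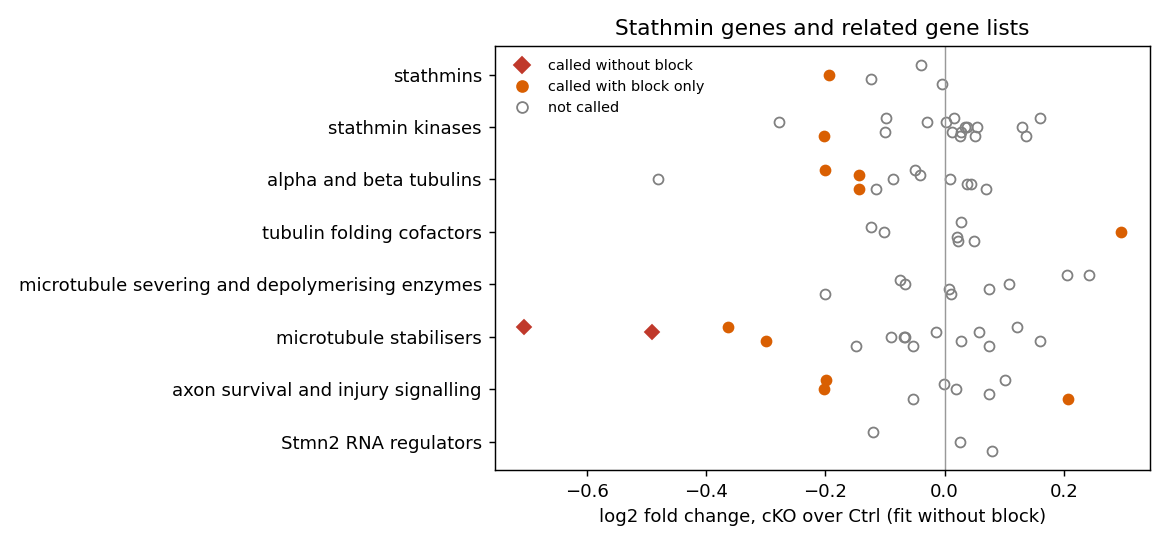
Each point is a gene, placed by its log2 fold change of cKO over Ctrl without the block, in rows for the stathmins and for the 7 related lists. Red diamonds passed without the block, orange circles passed only with it, and open circles passed neither; the red diamonds are Tppp (-0.70) and Mapt (-0.49), and the orange point among the stathmins is Stmn2 (-0.19).

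Genes with the most similar profile over the 6 libraries were found by the root mean square distance of centred log2 CPM among 8775 genes with at least 20 CPM on average. Nearest to Stmn2 were Thap12, Rtl8c and Tspan13, a tetraspanin gene, at distances of 0.0221, 0.0227 and 0.0229. Nearest to Stmn4 were Armcx3, Exoc1, an exocyst subunit gene, and Ampd2, an AMP deaminase gene, at 0.0119 to 0.019. Stmn1 was closest to Prpf19, a splicing factor gene (0.00927), Psmd7, a proteasome subunit gene, and Mrps5, a mitochondrial ribosomal protein gene. Stmn3 was closest to Arfgap3 (0.0126), Tiparp and Sqstm1, the gene of an autophagy receptor. Among the members themselves Stmn1 and Stmn3 were the closest pair, at 0.0389, and Stmn1 and Stmn2 the farthest apart, at 0.108. From a flat profile, Stmn1 lay at 0.0413, Stmn3 and Stmn4 at 0.0691, and Stmn2 at 0.118. Stmn1 was thus about as near to a flat profile as to Stmn3, and flat profiles lie close to each other. These distances describe 6 libraries that share replicate numbers in pairs, and they carry no test.

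The letters CATC, the DNA form of the short RNA motif CAUC known for binding by the YBX1 protein, were counted on the sense strand of the same 4 transcripts. There were 3 in Stmn1, 6 in Stmn2, 5 in Stmn3 and 11 in Stmn4. Per kilobase this was 2.83 in Stmn1, 2.89 in Stmn2, 4.40 in Stmn3 and 8.44 in Stmn4, against a median of 4.27 over the longest coding transcript of 13835 tested genes. Stmn4 stood at percentile 97.7 of these genes, Stmn3 at 53.4, Stmn2 at 16.4 and Stmn1 at 15.3. Genes with only short transcripts were left out of this background. The Stmn4 transcript counted, of 1303 bases, matches a RefSeq mRNA and is not its longest, which has 1361 bases. Its percentile therefore compares transcripts chosen in different ways. A match is a string of letters and not a measured binding site.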

How the data were processed

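Per the labels' protocols, RNA was extracted with Trizol and sequenced after mRNA library preparation; whether libraries keep strand is not given here. The submitters' processing notes name HISAT2 2.2.1, Bowtie2 2.4.5, RSEM 1.3.1 and the build GRCm38 (mm10), without saying what each did. Gene-level estimated counts were deposited, not normalized (88.4% to 88.6% whole numbers, meaning no fractional part; the stathmin counts were all whole). They also deposited TPM values, used for levels and ratios, and FPKM values, used only for their sums per library. No column was without a sample.

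Counts were rounded, filtered with filterByExpr (3633 genes removed), scaled by TMM and tested in edgeR 4.0.16 (R 4.3.3) by its robust quasi-likelihood test, two-sided; Benjamini-Hochberg adjustment ran over all genes, with a threshold of 0.05. SEs derive from the fold change and its F statistic. A second fit used the replicate number as a block: across genes, same-numbered libraries deviated together from their group means (correlations 0.35, 0.264 and 0.195), sample codes share their start, and controls are littermates. Where nothing says that libraries are separate embryos, p-values measure only the spread between libraries. Both fits were tested on simulated data. TPM ratios were compared by exact permutation. Alternatives were DESeq2 1.42.0, limma-voom (limma 3.58.1), limma on log2(TPM + 1) and log2(TPM + 0.1), other scalings and filters, and leaving out libraries or litters. Gene coordinates come from the RefSeq table of GRCm38.p6. Base identities come from global alignments (Biopython 1.88), and figures from matplotlib 3.10.9.

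The members and lists were chosen with earlier results of these data known. Named genes are the members, Ybx1, up to 4 called genes of each related list or else its 2 most abundant, and the 3 nearest profiles of each member.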

Additional observations from a re-analysis of the deposited data

How the results depend on the processing

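Stmn2 was lower in cKO under all 23 alternatives chosen at the start and was called in 6, of which 5 had the replicate block and the last left out litter 1. Its called log2 fold changes were -0.20 with the block (replicate number as pair), -0.17 with the block and library totals, -0.20 with the block and DESeq2 size factors, -0.21 without litter 1 in both fits, and -0.17 with the block and without litter 3. Leaving out single libraries gave -0.25 to -0.15 for Stmn2, -0.15 to -0.11 for Stmn4, -0.085 to 0.011 for Stmn3 and -0.031 to 0.035 for Stmn1, with no call. Stmn4 was lower under all 23 and called under none. The sign of Stmn1 turned with library totals (0.022, and 0.023 with the block), with limma on TPM (0.013 with either pseudocount), without cKO replicate 2 (0.0045), without Ctrl replicate 1 (0.035), without litter 1 (0.022 in both fits) and relative to the mean log2 of the neuron markers (0.069), an alternative chosen after seeing the data. That of Stmn3 turned without Ctrl replicate 1 (0.011) and relative to the mean log2 of the neuron markers (0.033). The 6 TPM ratios kept their direction with CPM, as paired differences and without any single library: Stmn2/Stmn1 -0.23 to -0.15, Stmn3/Stmn1 -0.068 to -0.013, Stmn4/Stmn1 -0.19 to -0.088, Stmn3/Stmn2 0.14 to 0.18, Stmn4/Stmn2 0.0083 to 0.13 and Stmn4/Stmn3 -0.16 to -0.041.

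The genes called over the whole table numbered 69, against 44 with library totals, 184 with DESeq2, 128 without a filter, 15 with limma on TPM at either pseudocount, 18 to 104 on leaving out single libraries, and 731, 8 and 2 without litters 1, 2 and 3. With the block they numbered 764, 799 with library totals, 731 with DESeq2 size factors, and 1252, 260 and 836 without litters 1, 2 and 3. The split of higher and lower calls was 16 and 53 with TMM, 16 and 28 with library totals, 253 and 511 with the block, and 396 and 403 with the block and library totals, where the median of all genes was 0.031. Related genes called numbered 2, against 1 with library totals, 4 with DESeq2, 0 with limma on TPM, 0 to 3 on leaving out single libraries, 7, 0 and 0 without litters 1, 2 and 3, and, with the block, 12, 11 with library totals, 10 with DESeq2 size factors, and 10, 3 and 13 without litters 1, 2 and 3. The cause of these moves was not tested, beyond the smaller number of libraries where some were left out. With 3 libraries a group, exact permutation tests cannot go below 0.1.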
